A study of Mus musculus with 2 samples.

Results

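The Reg family comprises small secreted C-type lectins that pancreatic acinar cells make, some at rest and some after injury. Mice carry Reg1, Reg2, Reg3a, Reg3b, Reg3d and Reg3g, the 6 genes described here out of 32285 listed in the files, and they were taken by gene symbol. Reg1 and Reg2 encode the lithostathine-type proteins of pancreatic juice. Reg3b, also known as pancreatitis-associated protein, and the other Reg3 genes belong to the acute phase response of the acinar cell, and REG3 proteins of the gut epithelium act against bacteria. Reg3 transcription is known to be raised by IL-22 and IL-6 family cytokines through STAT3.

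The samples were pancreatic tumors raised in mice by orthotopic injection of KPC cells, a mouse pancreatic cancer line, and each of the 2 groups was 1 single-cell library. The mice were male, and the cells were injected in Matrigel under the pancreatic capsule. C57BL/6 mice are named in the study's methods, which do not give the strain of the floxed and knockout hosts. The FLOX library came from hosts with a floxed MCT1 gene (Slc16a1, a lactate transporter) and the other came from MCT1-KO hosts. In the study the knockout was driven by tamoxifen-inducible Cre under the Col1a2 promoter, which acts in fibroblasts and pancreatic stellate cells (PSCs), so acinar cells were not its target. Tamoxifen or corn oil was given before the tumor cells, and which of these the FLOX mice received is not given in the sources used here. Both groups carried the same tumor cells. The labels give neither age nor the number of mice behind a library. With 1 library per group no test between groups was possible. The intervals below are therefore 95% intervals that cover counting error only and say nothing of the spread between mice or between barcodes.

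Barcodes with at least 500 UMIs, 200 to 5000 genes and at most 8% mitochondrial UMIs were kept, leaving 8739 FLOX barcodes and 11689 barcodes labelled MCT1-KO, with median depths of 4069 and 3706 UMIs. Barcodes of 10 to 100 UMIs (1179143 and 1160995, median depths of 20 and 18 UMIs) were taken as free RNA. Of the kept barcodes, 59 sequences occurred in both libraries. Slc16a1 was not lower in PSC-like barcodes of the library labelled MCT1-KO: 43.2 CPM (292 UMIs) against 34.1 CPM (242 UMIs) in FLOX, a ratio of 1.27 (95% interval 1.06 to 1.51). Directions below therefore compare the library labelled FLOX with the library labelled MCT1-KO, and no Slc16a1 UMI lay in an acinar-like barcode of either.

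The 6 genes form a single cluster on chromosome 6 (GRCm38, GENCODE vM21), from Reg3b at its start to Reg3g at its end, within 98216 bases (chr6:78370657-78468872). In order along the chromosome they are Reg3b, Reg3d, Reg3a, Reg2, Reg1 and Reg3g, with Reg3d and Reg3g on the minus strand. Their coding sequences were between 60.04% (Reg2 and Reg3g) and 82.6% (Reg1 and Reg2) identical over the 15 pairs. The longest run of identical bases in their transcripts was 35, between Reg3b and Reg3g, and 0 pairs shared a run of 91 bases.

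The bases upstream of the RefSeq start (GRCm38.p6) are shown for Reg2, whose level differed least between libraries in acinar-like barcodes. Reg3a is shown because it differed most, though without 1 FLOX barcode described below Reg3g did. Reg3b and Reg3g are shown too. Of the members, Reg3g had the highest ratio of observed to expected UMIs in Epcam+ epithelial-like barcodes, given below. Capitals mark matches, on either strand, to TATAAA, to TGGGAA (the RBP-J core), to CACCTG (an E-box) and to TTCNNNGAA (the STAT motif). Reg2 is shown from chr6:78405005-78405154 (+), Reg3a from chr6:78380559-78380708 (+), Reg3b from chr6:78370735-78370860 (+) and Reg3g from chr6:78468875-78469024 (-), each stretch beginning 150 bases before the start and, for Reg3b, ending where an annotated exon begins. In Reg3b a TATAAA match at -29 to -24 runs past the end of the stretch and is therefore not in capitals. The Reg2 and Reg3b stretches lie inside the GENCODE bounds of these genes, which begin further upstream.
Reg2: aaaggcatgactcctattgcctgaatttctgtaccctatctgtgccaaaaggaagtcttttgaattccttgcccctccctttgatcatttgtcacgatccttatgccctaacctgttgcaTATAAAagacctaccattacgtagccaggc
Reg3a: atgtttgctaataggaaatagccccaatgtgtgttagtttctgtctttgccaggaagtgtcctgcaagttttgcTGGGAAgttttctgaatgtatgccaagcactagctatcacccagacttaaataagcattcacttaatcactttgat
Reg3b: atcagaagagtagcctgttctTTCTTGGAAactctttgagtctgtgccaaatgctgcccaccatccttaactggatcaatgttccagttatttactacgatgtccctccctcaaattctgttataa
Reg3g: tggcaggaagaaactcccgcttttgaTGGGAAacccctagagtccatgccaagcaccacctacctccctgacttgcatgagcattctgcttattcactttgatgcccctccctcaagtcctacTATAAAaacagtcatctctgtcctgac
Over the 250 bases before the start, TTCNNNGAA was found in Reg3b and Reg3d, 2 of the 6 members, and in 7.02% of 32851 promoters. TGGGAA was found in 5 of 6 and in 21.6% of promoters, CACCTG in 4 of 6 and in 17.2%, and TATAAA in 4 of 6 and in 12.4%. In Reg3d the STAT match and a TGGGAA match overlapped. These are matches of letters and not evidence of binding.

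Acinar-like barcodes, those in which 12 enzyme genes (no Reg gene among them) held at least 10% of UMIs, were few: 16 of the FLOX library (0.183%) and 140 of the library labelled MCT1-KO (1.20%), with median depths of 1242.5 and 1170.5 UMIs. All 12 defining enzyme genes were detected in both sets and all 11 islet markers were at 0 in FLOX (2 UMIs in total in the other). The cut lay in a thinly filled range in FLOX, with 2 barcodes of 5 to 10% enzyme UMIs, but not in the other, with 73. Neutrophil markers held 77.6 CPM of the FLOX acinar-like UMIs and 3300 CPM of the other set, where 7 barcodes held at least 10 neutrophil-marker UMIs, and macrophage markers held 601.6 and 2276 CPM. Values without barcodes that carry markers of other cells are given below.

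The family made up a larger share of acinar-like RNA in the FLOX library. Summed over barcodes, with CPM the UMIs of a gene scaled to a fixed total of 1000000 UMIs in the class, it reached 94060 CPM (91430 to 96746, 4847 UMIs) in FLOX and 43977 CPM (43151 to 44815, 10780 UMIs) in the library labelled MCT1-KO, a level 2.14 times higher in FLOX (2.07 to 2.21). One FLOX barcode of 14608 UMIs held 2431 of these Reg UMIs, 50.2% of the total. Without it the ratio of the library labelled MCT1-KO over FLOX moved from 0.468 to 0.672 (0.643 to 0.703). Per barcode the Reg share was 2.03%, 9.26% and 20.1% (lowest, median and highest) in FLOX, and 0.141%, 3.48% and 22.3% in the other. The medians pointed the same way as the sums, and the ranges overlapped. Barcodes with any UMI of 5 genes of other cells (Ptprc, Lyz2, Cd3e, Col1a1 and Pecam1) were left out in an alternative, in which 12 and 110 barcodes remained and the ratio was 0.612 (0.580 to 0.647). The FLOX barcode of 2431 Reg UMIs, with 3 Lyz2 UMIs, was among those left out, so the alternative is not independent of the one without that barcode.

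**Figure D1:**
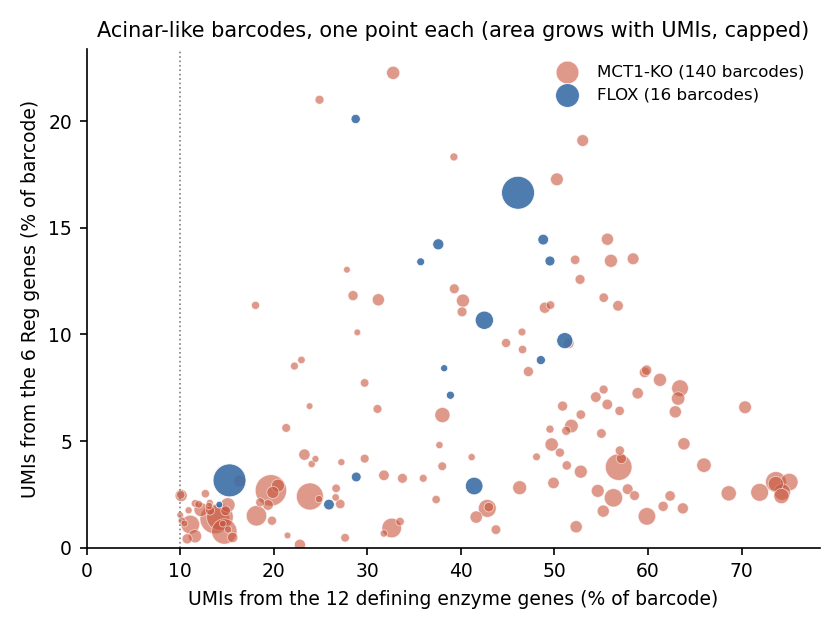
Share of UMIs from the 6 Reg genes against the share from the 12 defining enzyme genes in each acinar-like barcode, one point per barcode, 16 FLOX (blue) and 140 MCT1-KO-labelled (red), with the 10% limit dotted and point area growing with UMIs up to a maximum. The largest of the high FLOX points is the barcode with 2431 Reg UMIs, and the FLOX points reach from 2.03% to 20.1% within the range of the others.

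By role, the 6 members did not keep 1 ratio. Reg1 lay at 30913 CPM (1593 UMIs) in FLOX and at 10146 CPM (2487 UMIs) in the library labelled MCT1-KO, 3.05 times higher in FLOX (2.86 to 3.25). As the ratio of the library labelled MCT1-KO over FLOX this is 0.328, against 0.552 without the barcode of 2431 Reg UMIs and 0.550 without barcodes carrying other markers. Reg2, its closest relative by sequence, lay at 22996 and 20557 CPM, only 1.12 times higher in FLOX (1.05 to 1.19), and without the barcode of 2431 Reg UMIs it lay slightly the other way, at a ratio of 1.04 (0.958 to 1.12).

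Among the Reg3 genes, Reg3b was the most abundant, at 30681 CPM in FLOX and 10554 CPM in the other, 2.91 times higher in FLOX (2.73 to 3.10). Its ratio of the library labelled MCT1-KO over FLOX, 0.344, became 0.494 without the barcode of 2431 Reg UMIs. Reg3a lay at 6326 and 1363 CPM, 4.64 times higher in FLOX (3.97 to 5.42), a ratio the other way round of 0.215 that became 0.387 without the 1 barcode and 0.344 without barcodes carrying other markers. Reg3g lay at 1591 and 461.0 CPM, 3.45 times higher (2.57 to 4.63), on 82 and 113 UMIs. Reg3d lay at 1552 and 897.5 CPM, 1.73 times higher (1.32 to 2.24), on 80 and 220 UMIs, and without the 1 barcode its ratio of the library labelled MCT1-KO over FLOX was 1.04 (0.713 to 1.55). Without barcodes carrying other markers that ratio turned to 2.01 (1.07 to 4.26), so no direction is given for Reg3d.

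A single barcode also carried much of each rare member in FLOX: 60.1% of Reg3a UMIs, 60.0% of Reg3d UMIs and 35.4% of Reg3g UMIs. The median FLOX barcode held 35.5 UMIs of Reg1, 43 of Reg2, 7 of Reg3a, 43.5 of Reg3b, 1 of Reg3d and 1.5 of Reg3g. The median barcode of the library labelled MCT1-KO held 12 of Reg1, 24.5 of Reg2, 1 of Reg3a, 9 of Reg3b, 1 of Reg3d and 0 of Reg3g, with 0 Reg3g UMIs in 94 of its 140 barcodes.

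**Figure D2:**
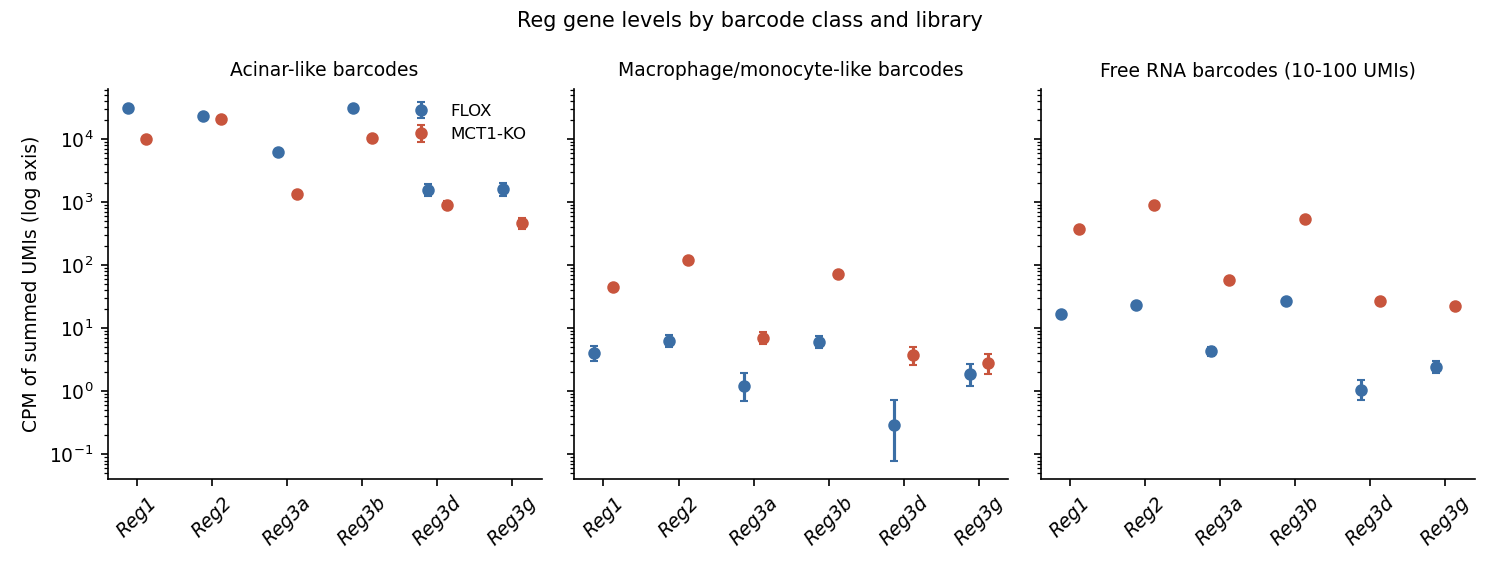
Summed UMIs of each member in CPM (log axis) in acinar-like, macrophage/monocyte-like and free-RNA barcodes, with exact Poisson 95% intervals, FLOX blue and MCT1-KO-labelled red. In acinar-like barcodes the FLOX points lie higher for every member (Reg1 30913 against 10146 CPM), and in the other panels the red points lie higher.

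Over all genes with at least 50 UMIs in the acinar-like barcodes of both libraries together, 8.2% of 366 genes were more than 2-fold higher in FLOX and 16.4% more than 2-fold higher in the other. Of the 6 members, 4 (Reg1, Reg3a, Reg3b and Reg3g) were more than 2-fold higher in FLOX and 0 were more than 2-fold higher in the other. The median ratio of the library labelled MCT1-KO over FLOX was 0.922 over the 366 genes and 0.336 over the members. Without the barcode of 2431 Reg UMIs, Reg1 was no longer past 2-fold, 3 members were, and the members' median was 0.523. Without barcodes carrying other markers 3 members were more than 2-fold higher in FLOX, 1 (Reg3d) was more than 2-fold higher in the other, and the median was 0.489. The shares over all genes were not computed for either alternative.

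Most enzymes did not follow the members. Over the 22 enzyme genes with at least 50 UMIs, the same ratio ran from 0.570 (Prss2, anionic trypsinogen) to 2.59 (Cela1, an elastase). Its median was 1.39. Above every member lay 18 of 22, while Prss2, Sycn (0.657), Pnliprp1 (0.669) and Clps (0.789) lay below Reg2 (0.894). The 12 genes that defined the class are among the 22, so their levels there were tied to the selection. Reference genes alone ran from 0.657 to 2.09 (Gp2), with a median of 1.39. These ratios include the barcode of 2431 Reg UMIs. The Reg content per enzyme UMI rests on neither the number of acinar-like barcodes nor their total UMIs. The 12 reference enzyme genes did not define the class. Of these, Cela2a and Cuzd1 had 0 UMIs in both libraries, and some others, such as Sycn, Gp2 and Dmbt1, are not enzymes. Against this list FLOX acinar-like barcodes held 179 Reg UMIs per 100 enzyme UMIs (171 to 188) and those of the library labelled MCT1-KO held 75.9 (74.0 to 77.8), a ratio of 2.36 (2.24 to 2.49). Without the barcode of 2431 Reg UMIs this ratio was 1.53 (1.44 to 1.64).

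The same measure in free RNA, which does not depend on how acinar-like barcodes were drawn, gave 139.8 Reg UMIs per 100 reference enzyme UMIs in FLOX (131 to 149) and 76.1 in the other (75.2 to 77.0), 1.84 times higher in FLOX (1.725 to 1.959). By member the FLOX excess per enzyme in free RNA was 1.24 for Reg2 (1.13 to 1.35), 1.81 for Reg3d (1.27 to 2.58), 2.07 for Reg1 (1.87 to 2.29), 2.36 for Reg3b (2.17 to 2.57), 3.46 for Reg3a (2.88 to 4.15) and 5.13 for Reg3g (4.02 to 6.55). In acinar-like barcodes Reg2 was again lowest (1.23) and Reg3a highest (5.12), with Reg3g at 3.81. Without the barcode of 2431 Reg UMIs Reg3g was highest (3.21, 2.31 to 4.46) and Reg3a lay at 2.66 (2.16 to 3.28). Reg3b then lay at 2.09 (1.90 to 2.29), Reg1 at 1.87, and Reg2 and Reg3d at 0.996.

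In absolute terms, free RNA of the library labelled MCT1-KO held far more Reg RNA, and more enzyme RNA still. The family lay at 75.7 CPM (2357 UMIs) in FLOX and 1916 CPM (48457 UMIs) in the other, 25.3 times higher (24.3 to 26.4), and 15.2 times higher where barcodes of 5 to 50 UMIs stood for free RNA. The ratio was 37.6 for Reg2, 25.7 for Reg3d, 22.5 for Reg1, 19.7 for Reg3b, 13.4 for Reg3a and 9.07 for Reg3g. Of 12925 genes with at least 50 UMIs in free RNA, 1.97% were more than 2-fold higher in the library labelled MCT1-KO, all 6 members among them, and 3.26% were more than 2-fold higher in FLOX, with 0 members. The 22 enzymes ran from 19.2 (Pnliprp1, a lipase-related protein) to 98.6 (Pnlip, pancreatic lipase), median 55.3, and 20 of 22 lay above every member.

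**Figure D3:**
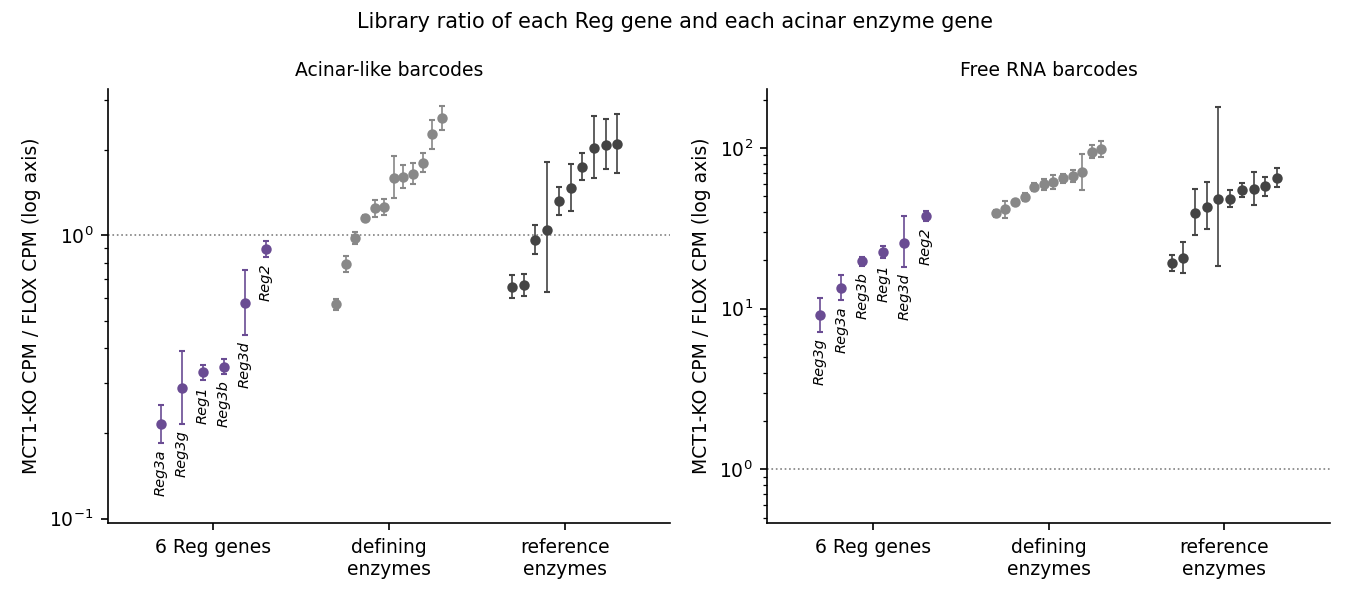
Ratio of the library labelled MCT1-KO over FLOX in CPM (log axis) for the 6 Reg genes, the defining enzymes and the reference enzymes with at least 50 UMIs, in acinar-like (left) and free-RNA (right) barcodes, with exact 95% intervals. The Reg genes lie low among the enzymes in both panels: median enzyme ratio 1.39 on the left and 55.3 on the right, Reg2 highest of the family in both.

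Over all kept barcodes together, 4 of 6 members were more than 2-fold higher in the library labelled MCT1-KO (2.72% of 15465 genes were) and 0 more than 2-fold higher in FLOX (6.41% of genes were). Here Reg2 lay 6.42 times higher (6.09 to 6.77) and Reg3g 1.18 times (0.989 to 1.399). Reg2 and Reg3d led the order here and in free RNA. The family sum over all kept barcodes was 3.33 times higher in the library labelled MCT1-KO, the opposite of its direction within acinar-like barcodes. Acinar-like barcodes held 78.5% of the Reg UMIs of kept barcodes in FLOX (77.4 to 79.5) and 39.3% (38.8 to 39.9) in the other. With the marked barcodes counted as not acinar-like these shares were 24.9% and 31.4%, since 4 FLOX barcodes with 3311 Reg UMIs, the one of 2431 among them, then counted outside the class. With those barcodes taken out of both sums the shares were 53.6% (51.8 to 55.5) and 34.1% (33.5 to 34.7).

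The make-up of the family differed most in Reg2. In acinar-like barcodes Reg2 held 24.4% of Reg UMIs in FLOX (23.2 to 25.7) and 46.7% in the library labelled MCT1-KO (45.8 to 47.7). In free RNA Reg2 held 31.3% and 46.6%. Reg1 held 32.9% and 23.1% of acinar-like Reg UMIs, and Reg3b held 32.6% and 24.0%. Reg3d held 1.65% (1.31 to 2.05) and 2.04% (1.78 to 2.33), and these intervals overlapped. The FLOX acinar-like shares include the barcode of 2431 Reg UMIs, which held 914 of Reg1, 452 of Reg2 and 792 of Reg3b. Shares without that barcode were not computed. In free RNA Reg3b held 36.0% and 28.0%.

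**Figure D4:**
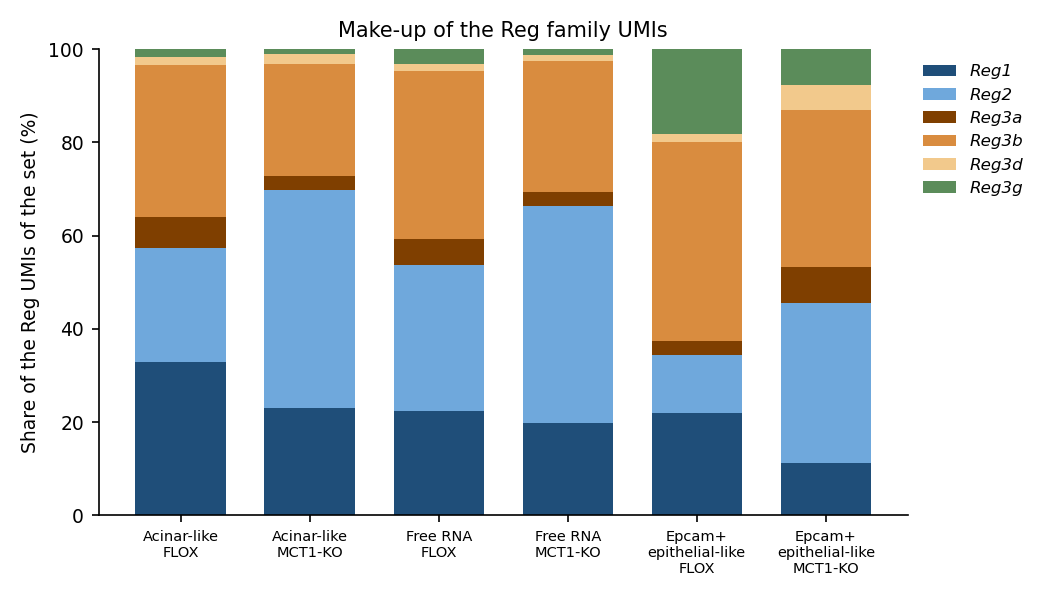
Share of each member among the Reg UMIs (%) of acinar-like, free-RNA and Epcam+ epithelial-like barcodes, FLOX and MCT1-KO-labelled side by side; each bar sums to 100%. Reg2 (light blue) takes 24.4% and 46.7% of the acinar-like bars, and Reg3g (green) takes 18.1% and 7.58% of the Epcam+ bars. The FLOX acinar-like bar includes the barcode of 2431 Reg UMIs.

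Detection of a Reg3 UMI depended on depth. With each acinar-like barcode of at least 1000 UMIs thinned to 1000 UMIs, the expected share with a Reg3 UMI was 99.6% of 11 FLOX barcodes (71.5 to 100) and 88.7% of 86 in the other (79.7 to 94.3), leaving out 5 and 54 shallower ones. Not thinned, it was 100% of 16 and 94.3% of 140. In macrophage/monocyte-like barcodes, cells that should lack these genes, a Reg3 UMI was found in 4.03% of 2208 FLOX barcodes (median depth 6163 UMIs) and in 22.4% of 2070 of the other (4840 UMIs). Thinned to 1000 UMIs these shares were 0.876% and 6.78%, which are taken as background.

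Outside the acinar-like barcodes, Reg UMIs were set against the number expected if they had come with enzyme UMIs in the proportion seen in free RNA. In the library labelled MCT1-KO, the 8 sets with at least 10 expected UMIs other than the epithelial ones, barcodes with no class among them, gave 0.850 to 1.41 times the expected number, and in FLOX 6 such sets gave 0.483 to 1.03. Epcam+ epithelial-like barcodes of the library labelled MCT1-KO (47 barcodes) had the highest ratio, 554 Reg UMIs against 223 expected (2.48, 2.28 to 2.70). Epcam- epithelial-like barcodes of that library gave 536 against 375 (1.43, 1.31 to 1.55), with Reg3d at 3.38 (2.00 to 5.34) and Reg3g, at 6 UMIs, at 1.38 (0.507 to 3.01). Of the 10 sets of that library, the epithelial ones included, 2 had an interval that held 1, so a smaller excess was common there. In FLOX 5 of 8 had an interval that held 1, and the rest lay below 1. These were macrophage/monocyte-like (0.709 to 0.902), dendritic-like (0.232 to 0.889) and T/NK-like barcodes (0.440 to 0.818). The excess in the Epcam+ class of the library labelled MCT1-KO was steepest for Reg3g, 42 UMIs against 2.58 expected (16.3, 11.7 to 22.0), Reg3d, 30 against 3.17 (9.46, 6.38 to 13.5), and Reg3a, 43 against 6.80 (6.32, 4.58 to 8.52). It was smaller for Reg3b (2.99), Reg2 (1.83) and Reg1 (1.401).

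Within this class lay the 3 kept barcodes of either library with at least 10 Reg3 UMIs and fewer enzyme than Reg3 UMIs. The first held 109 Reg3 UMIs, 69 enzyme UMIs, 10 of Epcam, 16 of Clu (clusterin) and 25 of Nupr1 (a stress-response gene). The second held 56, 42, 2, 11 and 54, and the third 34, 19, 3, 6 and 14, in the same order. All 3 had Krt8 UMIs (12, 17 and 8) and 0 of Krt19 and Sox9, genes of the duct, while the first held 7 UMIs of Spp1 and 1 of Muc1, also duct-like genes, and the others 0. Without these 3 the family ratio was 1.28 (1.13 to 1.44) and that of Reg3g 4.91 (2.53 to 8.57).

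**Figure D5:**
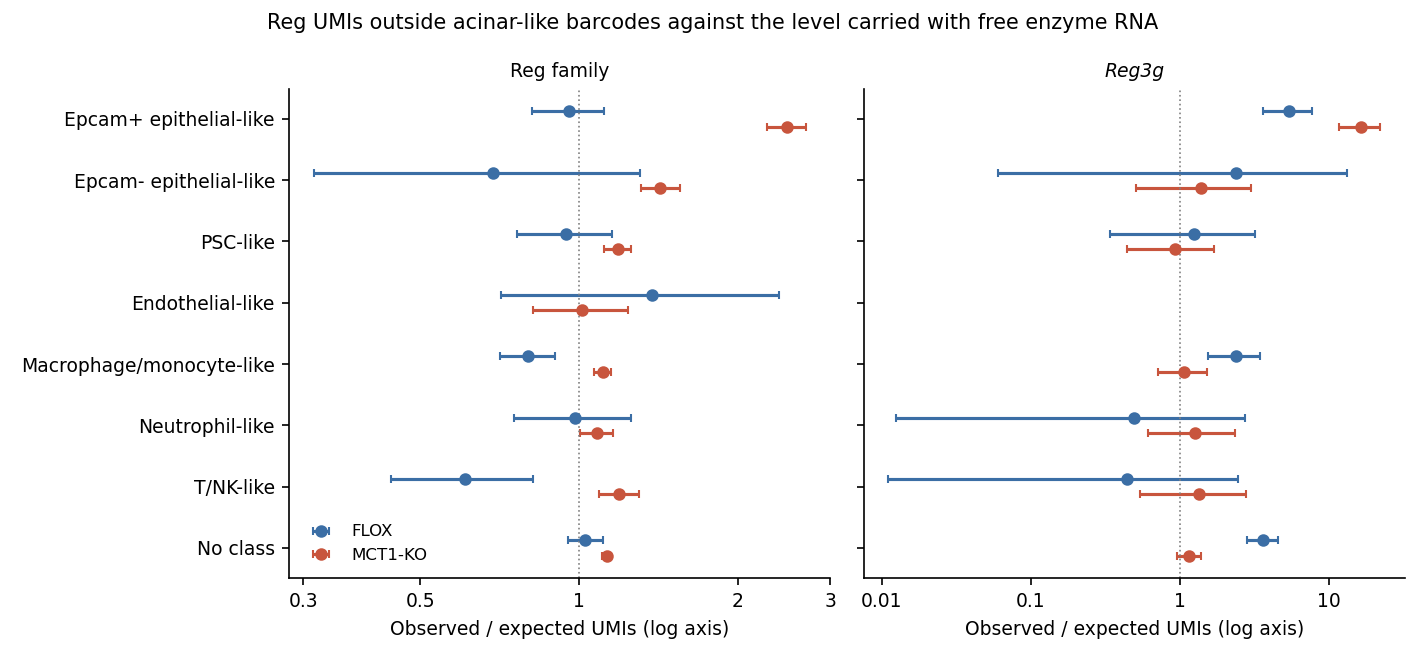
Observed over expected UMIs (log axis) of the whole family (left) and of Reg3g (right) in classes other than acinar-like, with exact Poisson 95% intervals, FLOX blue and MCT1-KO-labelled red; a class with 0 UMIs has no point. Epcam+ epithelial-like barcodes of the library labelled MCT1-KO lie at 2.48 and 16.3, and FLOX Reg3g lies at 5.38 in that class and at 3.60 in barcodes with no class. Of the 75 Reg3g UMIs behind the value of 3.60, 50 lay in 1 barcode. The 29 behind the value of 5.38 lay in barcodes that held 9, 8, 7 and 5.

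In FLOX the whole family showed no such excess in Epcam+ epithelial-like barcodes (22 barcodes, 160 UMIs against 167 expected, 0.957, 0.814 to 1.12), but Reg3g did, with 29 UMIs against 5.39 expected (5.38, 3.60 to 7.72). Dmbt1, counted with the enzymes, gave 113 of the 881 enzyme UMIs behind these expected numbers, and 167 of 2474 in the library labelled MCT1-KO. The 29 Reg3g UMIs lay in barcodes that held 9, 8, 7 and 5, and the other barcodes of this class held none. Without the 3 FLOX barcodes of this class with the most Reg3 UMIs the family ratio was 0.170 and that of Reg3g 3.83. The latter rests on 8 Reg3g UMIs in 1 barcode. With the epithelial and duct marker lists joined the ratios were 0.325 and 6.90. Reg3g was also above its expected number in FLOX barcodes with no class (75 against 20.8, 3.60, 2.83 to 4.51) and in macrophage/monocyte-like ones (26 UMIs, 2.36, 1.54 to 3.45). With no class, 1 barcode held 50 of the 75 UMIs and another held 8. In the macrophage/monocyte-like set 1 barcode held 11 of the 26. Of the 137 Reg3g UMIs of FLOX outside the acinar-like class, 98 lay in 7 barcodes with at least 5 each.

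Gkn1, Gkn2, Muc5ac and Tff1, known from the stomach lining, were among the leading genes of the FLOX Epcam+ class, so it is called by its markers only. Tff1, Tff2 and Gkn3 also stand on the list of acinar injury and duct-like change used below, and whether these barcodes came from stomach or from changed pancreatic epithelium was not tested. Of the 7 barcodes, 4 devoted 10.04% to 22.1% of UMIs to 9 stomach genes chosen after these barcodes were seen, with Tff2 leading in 3 of them and Pgc (pepsinogen C) in 1. Not all of these 4 were in the Epcam+ class, and the deepest had no class. Gkn1 and Gkn2 were at 0 in all 4 and Tff1 at 5 UMIs in 1 and 0 in 3, while Muc5ac was not counted in them. The deepest of them held 50 Reg3g UMIs beside 1951 of Tff2, 466 of Gkn3 and 60 of Gast (gastrin), and 10 of Reg3b. The other 3 of these held 9, 8 and 8 Reg3g UMIs and 0 of Reg3b. Over all kept FLOX barcodes with at least 1% stomach-gene UMIs, 15 barcodes held 75 Reg3g UMIs and 10 UMIs of the other Reg3 genes.

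In the library labelled MCT1-KO 0 kept barcodes reached 1% stomach-gene UMIs, and Gkn3 had 0 UMIs against 1080 in FLOX. The 9 stomach genes summed to 259 CPM in FLOX free RNA and 78.0 CPM in the other, but not all in 1 direction: Tff1 lay at 112 and 2.49 CPM, and Tff2 at 26.8 and 75.2 CPM. Their part in the FLOX level of Reg3g, which was the member with the largest FLOX excess per enzyme in free RNA, was not tested.

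Among genes outside the family, acinar genes were most like each member over 26 class-by-library sums and free-RNA sets. They were Try5 for Reg1 (Pearson r 0.978) and Reg2 (0.985), Try10 for Reg3a (0.973) and Reg3d (0.954), Cela1 for Reg3b (0.954) and Erp27 for Reg3g (0.943). The next 2 were Pnliprp1 and Spink1 for Reg1, 2210010C04Rik and Cela3b for Reg2, Pdia2 and Erp27 for Reg3a, Rnase1 and Try5 for Reg3b, Erp27 and Pdia2 for Reg3d, and Dmbt1 and Hsd17b13 for Reg3g. These points share libraries, and free RNA enters each of them. Members resembled one another at r of 0.830 (Reg2 and Reg3g) to 0.965 (Reg3a and Reg3d). Another member lay closer than the first gene named for Reg3d (Reg3a, 0.965), Reg3b (Reg2, 0.955) and Reg3g (Reg3a, 0.945).

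Within the 140 acinar-like barcodes of the library labelled MCT1-KO, the summed Reg3 level went with Reg2 (r 0.715) more than with Reg1 (0.346), and weakly with the summed reference enzymes (0.129) and the log of UMIs (-0.202). The 5 other genes with the highest r were Lrg1 (0.366), Rnase1 (0.307), Dmbt1 (0.239), Ctrb1 (0.231) and Prss2 (0.229). These are correlations across barcodes of 1 library, which are not replicates.

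Of 8 acute phase and stress genes, 4 had at least 50 UMIs in acinar-like barcodes. Spink1, a trypsin inhibitor, lay at 3396 CPM in FLOX and 1314 CPM in the other, a ratio of 0.387 (0.321 to 0.468), but 1 FLOX barcode held 124 of its 175 UMIs and without that barcode FLOX lay at 1381 CPM. Summed over barcodes the other 3 lay the opposite way, each reaching 50 UMIs only through the library labelled MCT1-KO. Lcn2, also a neutrophil granule gene, was at 0 UMIs in FLOX, which allows up to 58.2 CPM, and at 416 CPM (102 UMIs) in the other, in 21 barcodes. Neutrophil markers were higher in that set too (77.6 and 3300 CPM), and without the 7 barcodes with at least 10 neutrophil-marker UMIs Lcn2 lay at 385.5 CPM (91 UMIs). Without the 1 barcode that held 33 of the 102 UMIs it lay at 293.5 CPM. Lcn2 also stands on the epithelial marker list, and 8 barcodes of that set held at least 10 UMIs of the list. Lcn2 without those 8 was not computed. Saa3 had 1 and 73 UMIs and C3 had 3 and 84, but 1 barcode held 67 of the 73 and 1 held 75 of the 84, leaving 6 and 9. Without those barcodes Saa3 lay at 25.3 CPM and C3 at 38.0 CPM in the library labelled MCT1-KO. FLOX lay at 19.4 and 58.2 CPM, so no direction is given for Saa3 or C3. Of 16 genes of acinar injury and duct-like change, 6 had at least 50 UMIs there and 0 differed by more than 2-fold, from Spp1 (0.605) to Nupr1 (1.59). Over all 366 genes with that many UMIs, 8.2% were more than 2-fold higher in FLOX and 16.4% in the other. Spp1 lay at 485 and 294 CPM there, below its 4093 and 2539 CPM in free RNA. Krt8 and Krt18 also lay below free RNA in both libraries, and Clu, Nupr1 and Tff2 above it. The part of carried-over RNA in these values was not tested.

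None of the 6 acinar transcription factors, 7 ligands, 8 receptors or 5 signalling genes reached 50 UMIs in acinar-like barcodes. Their levels there could not be compared at this depth. The ligands and receptors were those of the IL-22 and IL-6 family axis to STAT3, with Il17a and Il17ra listed beside them. Over all kept barcodes, 3 of the 6 transcription factors had at least 50 UMIs and 0 differed by more than 2-fold, from Xbp1 (0.845) to Gata4 (1.30). There, 5 of the 7 ligands had at least 50 UMIs and 1, Osm (oncostatin M), was more than 2-fold higher in FLOX (a ratio of 0.324, 0.304 to 0.345), while Clcf1 reached 1.94. Il22 had 1 and 0 UMIs and Il17a 47 and 0. The 7 of 8 receptors with at least 50 UMIs ran from 0.828 (Il10rb) to 1.20 (Osmr), Il22ra1 having 1 and 3 UMIs, and the signalling genes from 0.716 (Socs3) to 1.10 (Jak2). Extl3, a proposed REG receptor, was at 0.771 (0.725 to 0.821). Reg4, the family member outside the cluster, had 1 and 9 UMIs.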

How the data were processed

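The study dissociated the tumors and made 1 single-cell library per group. Per the labels a microwell 3′ kit was used, while the study's methods name droplet kits, and Seurat 4.0.0 and a human build, GRCh38, are listed although the gene IDs are those of mouse, and which build the counts rest on is not given in the sources used here. The authors deposited raw UMI counts per gene and barcode for all barcodes, including near-empty ones. Total counts were 177334432 (FLOX) and 151118092 (MCT1-KO) UMIs.

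Counts were summed per barcode class. CPM has exact Poisson intervals, ratios have conditional exact intervals, shares have Clopper-Pearson intervals, and ratios of ratios have Wald intervals on the log scale. Intervals are at 95% and a count of 0 allows 3 counts. No p-value was computed. A barcode was acinar-like if the 12 enzymes held at least 10% of UMIs. Otherwise it took the marker list most enriched over free RNA (at least 2-fold, at least 3 markers), epithelial barcodes being split by an Epcam UMI, and 50.1% and 60.9% of kept barcodes had no class. These scoring rules, and the use of the epithelial list without the duct list, were set after seeing the data. The joined lists were tried as an alternative. No doublet caller was run, and acinar-like barcodes with markers of other cells were left out in an alternative. Genes were named by likeness, the 3 nearest per member on log2(CPM + 1) and 5 within acinar-like barcodes, and by fixed lists, in which those with the largest and smallest ratio were named. The members and lists were chosen with earlier results of these data known. Interval coverage was tested on simulated independent Poisson counts for free RNA and all kept barcodes. The acinar-like sets, with Reg UMIs gathered in few FLOX barcodes, were not simulated. Sequences are from RefSeq and GENCODE vM21, in which all 6 members matched. Calculations ran in scipy 1.17.1 on numpy 2.4.6, with tables in pandas 2.3.3, alignments in Biopython 1.88, plots in matplotlib 3.10.9 and Python 3.11.15.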

Additional observations from a re-analysis of the deposited data

Results flagged for a closer look

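Reg RNA was also found in barcodes that the comparisons leave out, in the library labelled MCT1-KO. Barcodes of at least 500 UMIs with fewer than 200 genes, 72 in that library and 4 in FLOX, held 53763 Reg CPM (51730 to 55855) and 94072 (82025 to 107391), and 67 and 3 of them passed the acinar enzyme limit. Barcodes of over 100 and under 500 UMIs held 7015 Reg CPM (6936 to 7095) in the library labelled MCT1-KO and 292 (283 to 301) in FLOX. The first FLOX value rests on 219 UMIs in 4 barcodes.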

How the results depend on the processing

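Of 77 alternatives to the values that answer a comparison, 40 stayed within the interval or spread of the value and 37 moved. Of 54 on single members 38 stayed, 13 moved and 3 turned. For the family ratio in acinar-like barcodes (0.468) the values were 0.448 with at least 1000 UMIs, 0.345 and 0.451 with an enzyme limit of 5% and 20%, and 0.612 without barcodes carrying markers of other classes. Alternatives chosen after seeing the data gave 0.672 without the FLOX barcode with the most Reg UMIs, 0.488 with no lower gene limit and 0.376 from medians over barcodes. The FLOX excess of Reg UMIs per enzyme UMI (2.36) was 2.55, 2.66 (20% limit), 1.63 (other markers) and 1.53 (without the 1 barcode). Reg3d turned to 2.01 without other markers and, like Reg2, to 1.04 without the 1 barcode. The share of Reg UMIs in acinar-like barcodes was 81.6% and 40.6% (FLOX, then MCT1-KO) with mitochondrial UMIs up to 5%, 74.1% and 34.2% with no upper gene limit, 79.5% and 44.8% at the 5% limit, 70.4% and 34.6% at 20%, 24.9% and 31.4% with marked barcodes counted as not acinar-like, and 53.6% and 34.1% with them out of both sums (added after seeing the data). For MCT1-KO alone it moved to 37.1% with at least 1000 UMIs and 44.6% with no lower gene limit, and the share with a Reg3 UMI was 94.3% when not thinned. The free RNA ratio was 24.1 in barcodes of 20 to 200 UMIs and 15.2 in those of 5 to 50. In Epcam+ epithelial-like barcodes, observed over expected for FLOX was 0.769 (family) and 8.24 (Reg3g) with the ratio taken from acinar-like barcodes, and the family value was 0.170 without the 3 barcodes with the most Reg3 UMIs. For MCT1-KO, leaving out the 3 with the most Reg3 UMIs gave 1.28 (family) and 7.14 (Reg3g), and leaving out the 3 with more Reg3 than enzyme UMIs gave 1.28 and 4.91. Joining the epithelial and duct lists, an alternative added after both were seen, gave 0.325 for FLOX and 3.09 for MCT1-KO. The cause was not tested. Subtracting free RNA left Reg genes at 10.2% of FLOX acinar-like UMIs (estimated free share 0.0749, on 24 stromal UMIs) but gave no value for MCT1-KO, where the estimated share was 1.16, above 1, and so no ratio. No paired analysis was possible because each group is 1 library. With 16 FLOX acinar-like barcodes, depth limits the members with few UMIs, Reg3d and Reg3g.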
